A study of Mus musculus with 23 samples.

Results

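The expression of 10 glycolysis genes was examined in mouse Kdm2b fl/fl ESCs before and after tamoxifen. The genes were Slc2a1, Hk2, Gpi1, Pfkl, Aldoa, Tpi1, Gapdh, Pgk1, Eno1 and Ldha. They are a transporter and enzymes of the pathway, chosen by name with earlier results of these data known. All 10 were found among the 23363 gene names of the deposited tables. Other enzymes of the pathway, such as Pgam1 and Pkm, are given below as further genes. A gene entered the tests if 3 or more of the 6 samples reached 0.5 FPKM (a measure of fragments per gene that corrects for transcript length and for the fragments mapped in each sample), which left 12997 genes, the 10 among them. The RNA-seq samples comprised 3 replicates labelled untreated and 3 labelled as treated with 800 nM 4-hydroxytamoxifen for 72 hr, and the study describes them as biological triplicates.

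Both groups came from cells that carried loxP sites around a Kdm2b exon on both alleles and a tamoxifen-inducible Cre (ERT2Cre) at the Gt(Rosa26)Sor locus. Tamoxifen activates Cre, which removes the exon encoding most of the ZF-CxxC domain, the part of KDM2B that binds nonmethylated CpG DNA and brings the PCGF1/PRC1 complex to CpG islands. The untreated cells were not exposed to tamoxifen, and no samples of tamoxifen-treated cells without the floxed alleles were analysed, so the drug, Cre activity and loss of the domain cannot be told apart. The cells were grown in serum and LIF on mitomycin C-inactivated embryonic fibroblasts and were left to settle overnight without these feeders before the experiment. Untreated and tamoxifen below follow the labels of the samples. The file names give the opposite reading for all 6 samples, and under that reading every difference below would keep its size and its p-value and change its sign. The text of the series gives the tamoxifen dose in µM where the labels give nM. Kdm2b itself, measured over the whole gene and so not at the floxed exon, was at 27.0, 21.5 and 27.7 FPKM in untreated replicates 1, 2 and 3 and at 19.9, 21.9 and 25.0 FPKM in tamoxifen replicates 1, 2 and 3. These values overlap and were no check of the labels. FPKM summed to between 549400 and 1046000 per sample, and between 23.9% and 67.8% of each sum lay in loci shorter than 300 bp. The ESC markers were abundant, with all 10 of a list that includes Pou5f1, Sox2 and Nanog at 1 FPKM or more in all 6 samples.

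Glycolysis breaks glucose down to pyruvate in the cytosol and yields ATP without oxygen. Glucose enters through transporters of the SLC2A family, hexokinase traps it as glucose phosphate, and a chain of enzymes that includes phosphofructokinase, aldolase and enolase carries it to pyruvate, which lactate dehydrogenase can turn into lactate. Many of these genes are known targets of hypoxia-inducible factors (HIFs) and of MYC, and pluripotent cells are known for a high glycolytic flux.

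The promoters of Slc2a1, Pgk1 and Ldha are shown because KDM2B binds CpG-rich DNA and because these 3 genes had the lowest adjusted p with the replicate number fitted as a block, Slc2a1 with lower and the others with higher values after tamoxifen. Each sequence is the 250 bases before an annotated start in RefSeq (GRCm38.p6), read on the strand of the gene, and capitals mark the letters ACGTG or GCGTG, the core that HIFs recognise, or CACGT or CACGC, the same letters on the opposite strand. These coordinates are of another build than the mm9 positions used for expression.
Slc2a1, chr4:119108495-119108744, + strand: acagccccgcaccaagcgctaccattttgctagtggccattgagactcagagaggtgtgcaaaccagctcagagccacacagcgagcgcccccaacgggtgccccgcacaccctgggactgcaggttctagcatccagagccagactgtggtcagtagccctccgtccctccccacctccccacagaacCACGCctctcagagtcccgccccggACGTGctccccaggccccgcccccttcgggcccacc
Pgk1, chrX:106186850-106187099, + strand: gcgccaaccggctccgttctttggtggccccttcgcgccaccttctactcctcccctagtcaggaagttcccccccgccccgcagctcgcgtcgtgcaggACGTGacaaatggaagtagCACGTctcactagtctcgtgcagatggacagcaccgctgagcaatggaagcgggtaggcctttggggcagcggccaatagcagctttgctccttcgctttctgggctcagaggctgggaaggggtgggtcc
Ldha, chr7:46845554-46845803, + strand: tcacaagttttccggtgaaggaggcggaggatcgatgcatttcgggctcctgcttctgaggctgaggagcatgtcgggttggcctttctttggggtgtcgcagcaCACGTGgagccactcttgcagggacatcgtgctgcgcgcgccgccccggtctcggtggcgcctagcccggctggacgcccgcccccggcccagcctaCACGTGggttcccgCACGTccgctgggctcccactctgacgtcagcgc
The Slc2a1 promoter held 13 CpG dinucleotides, 1 ACGTG and 1 GCGTG, the Pgk1 promoter 17 CpG and 2 ACGTG, and the Ldha promoter shown 25 CpG and 5 ACGTG. In this Ldha promoter, 4 of these 5 were the same letters read on both strands, since CACGTG is its own reverse complement. Ldha has another annotated start, whose window at chr7:46846832-46847081 held 9 CpG, 0 ACGTG and 1 GCGTG, and the site with more matches is the one shown. All 10 genes matched the RefSeq table, with 15 start sites. Of these, 12 sites, belonging to 8 of the 10 genes, held either motif, and the promoters of Tpi1 and Gpi1 held neither. Among all 32851 start sites in the table, 38.6% held either motif, 16.6% ACGTG and 28.2% GCGTG. The 15 sites held between 0 CpG, at a site of Aldoa, and 25 CpG, with a median of 14, where the median of all sites was 6 and the quartiles were 2 and 16. A match describes the letters in this window and does not show that a factor binds there.

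Between untreated and tamoxifen samples, most of the glycolytic enzymes had higher FPKM and the glucose transporter Slc2a1 lower FPKM after tamoxifen. For Gpi1, Pfkl, Aldoa, Tpi1, Gapdh, Pgk1 and Ldha, these differences were smaller than those of replicates 2 and 3 from replicate 1. Slc2a1 differed by −0.65 between groups on the log2 scale. From replicate 1 it differed by 0.75 in replicate 2 and by −0.4 in replicate 3. In the comparison without a block (limma on log2(FPKM + 0.1), Benjamini-Hochberg adjustment over all genes tested, threshold 0.05 for calling a gene), 0 of the 10 genes were called higher and 0 lower, beside 0.0231% of all genes tested called higher and 0.00769% called lower. At an unadjusted p below 0.05 there was 1 of 10, Eno1, beside 4.79% of all genes. For every one of the 10 genes the values of the groups overlapped. Among all genes tested 8.49% did not overlap, so 0 of 10 does not set these genes apart. Across all genes, samples that shared a replicate number deviated from their group means in the same way, and this number was therefore also fitted as a block. With the block, 5 of the 10 were called higher (Pfkl, Aldoa, Tpi1, Pgk1 and Ldha) and 1 lower (Slc2a1), beside 4.33% of all genes called higher and 6.06% called lower. Within replicate numbers, 7 of the 10 were higher with tamoxifen in all 3 numbers and 1 was lower in all 3, beside 24.8% and 28.2% of all genes. The blocked calls depended on the scaling and on replicate 2. With quantile normalization 0 of the 10 were called higher and 1 lower, beside 4.29% and 4.51% of all genes, and without a mean-variance trend 0 and 1, beside 2.52% and 4.49%. Without replicate 2 there were 0 and 0, where the shares of all genes had also dropped, to 0.277% and 0.331%. Without replicate 3 there were 1 and 2, beside 2.76% and 3.68%, and the genes called lower were Slc2a1 and the row of Eno1, which cannot be read on its own. When single samples were left out of the comparison without the block, 1 replicate number lost its pair. The lowest log2 fold change among Pfkl, Aldoa, Tpi1, Gapdh and Pgk1 was then 0.06 (Gapdh, without untreated replicate 2). The highest was 0.87 (Pgk1, without untreated replicate 1). With whole replicate numbers left out under the block, these genes ranged from 0.23 (Gapdh, without replicate 2) to 0.59 (Pgk1, without replicate 3). Gpi1, which is not among them, turned to −0.10 without tamoxifen replicate 1 and to −0.06 without untreated replicate 2. Under the block its lowest value was 0.05, without replicate 2. Ldha ranged from 0.34 to 0.77 with single samples left out and from 0.45 to 0.59 under the block.

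**Figure D1:**
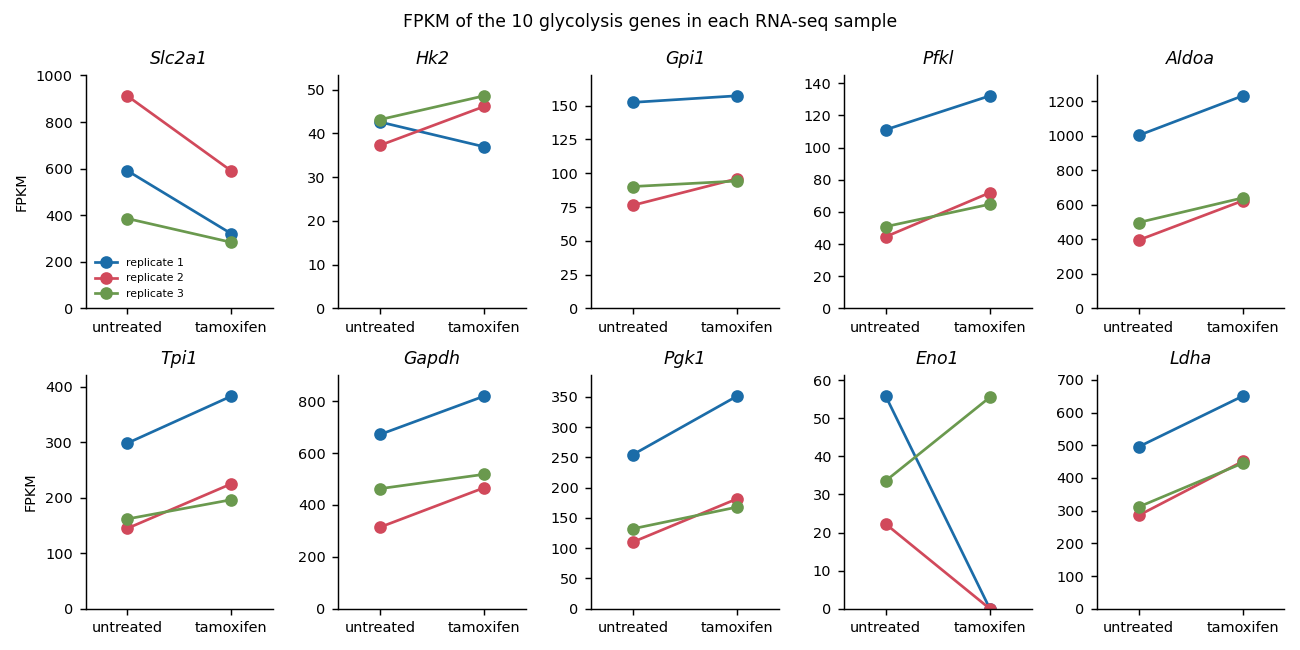
FPKM (linear axes starting at 0) of each gene in the 3 untreated and 3 tamoxifen samples, with a line joining the samples of the same replicate number. The lines of Pfkl, Aldoa, Tpi1, Gapdh, Pgk1 and Ldha run upward in all 3 replicates and those of Slc2a1 downward, while replicate 1 lies highest for 7 enzymes and the row of Eno1 is at 0 in tamoxifen replicates 1 and 2.

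The members differed widely in level on the FPKM scale, which is per length. Among untreated samples, mean FPKM was highest for Aldoa at 631 ± 324 and Slc2a1 at 630.0 ± 265 (SD, n = 3), followed by Gapdh at 483 ± 179, Ldha at 364 ± 114, Tpi1 at 201 ± 84.0, Pgk1 at 166 ± 77.7, Gpi1 at 106 ± 40.5, Pfkl at 68.8 ± 36.7 and Hk2 at 41.0 ± 3.2. Each neighbouring pair in this order differed by less than the larger of their SDs, except Ldha and Tpi1, which differed by more. These SDs include the differences between replicate numbers. Within each untreated replicate the order was the same, apart from the place of Slc2a1. The row of Eno1 is left out of this order for the reason given with its values.

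Slc2a1 encodes GLUT1, a facilitative transporter that brings glucose into the cell. Its FPKM was 592, 913 and 386 in untreated replicates 1, 2 and 3 and 321, 590.0 and 284 in tamoxifen replicates 1, 2 and 3. It was lower with tamoxifen within every replicate number, by log2 differences of −0.88, −0.63 and −0.44, and highest in replicate 2 in both groups. On average it differed by −0.65 on the log2 scale (SE 0.42 without the block, adjusted p = 0.999, limma; SE 0.11 with the block, adjusted p = 0.0159). Slc2a1 lies at chr4:118781349-118809934 (mm9, + strand).

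Slc2a3 encodes GLUT3, a transporter of high affinity for glucose. It had nearly the same profile over samples, at 515, 884 and 360 FPKM in untreated and 348, 651 and 322 FPKM in tamoxifen replicates 1, 2 and 3. It was also lower in all 3 numbers, with a log2 fold change of −0.39 and an adjusted p of 0.0675 with the block (limma), so it was not called. The ratio of Slc2a1 to Slc2a3 FPKM was 1.15, 1.03 and 1.07 in untreated and 0.922, 0.906 and 0.882 in tamoxifen replicates. The ratio was lower with tamoxifen in each replicate number, by log2 differences of −0.32, −0.19 and −0.28. Its values did not overlap between groups, but how often ratios of other gene pairs do not overlap was not examined. The 8.49% of genes without overlap refers to single genes and is no measure for a ratio. Slc2a4, which encodes the insulin-responsive transporter GLUT4, was called lower with the block, with a log2 fold change of −0.87 (adjusted p = 0.0302, limma) at levels between 0.809 and 2.77 FPKM.

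Hk2 encodes hexokinase 2, the inducible hexokinase that phosphorylates glucose. Its FPKM was 42.6, 37.3 and 43.1 in untreated and 36.9, 46.2 and 48.6 in tamoxifen replicates 1, 2 and 3. Its direction was not the same in the 3 numbers, and the log2 fold change was 0.09, with a 95% interval from −0.18 to 0.37 and an adjusted p of 0.632 with the block (limma). Hk2 varied less than the enzymes downstream of it, and the replicate number was not called for it (adjusted p = 0.426, limma). Its paralog Hk1, the constitutive hexokinase, stood at 17.2, 9.71 and 9.61 FPKM in untreated and 22.0, 16.7 and 12.5 FPKM in tamoxifen replicates. Hk1 was called higher with the block, with a log2 fold change of 0.50 and an adjusted p of 0.0392 (limma). Hk2 lies at chr6:82675020-82724448 (mm9, − strand).

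Gpi1 encodes glucose phosphate isomerase, the enzyme after hexokinase. Its FPKM was 152, 76.3 and 90.2 in untreated and 157, 96.0 and 94.2 in tamoxifen replicates 1, 2 and 3. The values were slightly higher with tamoxifen in all 3 numbers, by 0.05, 0.33 and 0.06 on the log2 scale. The log2 fold change was 0.15, with a 95% interval from −0.08 to 0.38 and an adjusted p of 0.349 with the block (limma). Gpi1 lies at chr7:34986345-35015324 (mm9, − strand).

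Pfkl encodes the liver-type subunit of phosphofructokinase, the committed step of the pathway. Its FPKM was 111, 44.6 and 50.9 in untreated and 132, 72.0 and 64.8 in tamoxifen replicates 1, 2 and 3. Untreated replicate 1 was above tamoxifen replicates 2 and 3, so the groups overlapped although each replicate number was higher with tamoxifen. Pfkl had a log2 fold change of 0.43 (SE 0.40 without the block; SE 0.11 with the block, adjusted p = 0.0488, limma). The platelet-type subunit Pfkp was at 48.1, 25.0 and 23.6 FPKM in untreated and 82.0, 51.9 and 32.1 FPKM in tamoxifen replicates and was called higher with the block, with a log2 fold change of 0.75 (adjusted p = 0.0138, limma). The muscle-type subunit Pfkm, at 17.0 to 35.1 FPKM, was not called, with a log2 fold change of 0.20 (adjusted p = 0.243). Pfkl lies at chr10:77449693-77472541 (mm9, − strand).

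Aldoa encodes aldolase A, which splits the phosphorylated hexose into triose phosphates. Its FPKM was 1001, 395 and 497 in untreated and 1230.4, 623 and 640.0 in tamoxifen replicates 1, 2 and 3. Both samples of replicate 1 stood far above the other 4 samples. Aldoa had a log2 fold change of 0.44 (SE 0.45 without the block; SE 0.11 with the block, adjusted p = 0.0484, limma). Aldoc, the brain-type aldolase, was lower in level, at 20.0, 7.25 and 7.76 FPKM in untreated and 30.1, 11.7 and 9.90 FPKM in tamoxifen replicates, and was called higher with the block, with a log2 fold change of 0.54 (adjusted p = 0.0253, limma). Aldoa lies at chr7:133938747-133943961 (mm9, − strand).

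Tpi1 encodes triose phosphate isomerase, which interconverts the triose phosphates. Its FPKM was 298, 145 and 162 in untreated and 383, 225 and 196 in tamoxifen replicates 1, 2 and 3. Untreated replicate 1 again lay above tamoxifen replicates 2 and 3. Tpi1 had a log2 fold change of 0.43 (SE 0.37 without the block; SE 0.10 with the block, adjusted p = 0.0433, limma). Tpi1 lies at chr6:124760609-124764314 (mm9, − strand), where the deposited row overlaps that of Spsb2 at its edge.

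Gapdh encodes glyceraldehyde phosphate dehydrogenase, which is also a common reference gene and served the study as such in RT-PCR. Its FPKM was 671, 314 and 463 in untreated and 819, 466 and 518 in tamoxifen replicates 1, 2 and 3. It was higher with tamoxifen within every replicate number, by 0.29, 0.57 and 0.16 on the log2 scale. The log2 fold change was 0.34 and was not called (SE 0.38 without the block; SE 0.11 with the block, adjusted p = 0.0964, limma). Hprt, the other reference gene, encodes a purine salvage enzyme and was at 124, 75.6 and 131 FPKM in untreated and 147, 101 and 141 FPKM in tamoxifen replicates. The ratio of Gapdh to Hprt was 5.40, 4.16 and 3.54 in untreated and 5.57, 4.63 and 3.68 in tamoxifen replicates, so it differed far more between replicate numbers than between groups. Gapdh lies at chr6:125111869-125115601 (mm9, − strand).

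Pgk1 encodes phosphoglycerate kinase, the enzyme of the first ATP-yielding step. Its FPKM was 254, 110.1 and 132 in untreated and 351, 181 and 168 in tamoxifen replicates 1, 2 and 3. Within replicate numbers it was higher with tamoxifen by 0.46, 0.72 and 0.35 on the log2 scale. Pgk1 had a log2 fold change of 0.51 (SE 0.40 without the block; SE 0.10 with the block, adjusted p = 0.0253, limma). Relative to Hprt it was also higher with tamoxifen in every number, at ratios of 2.05, 1.46 and 1.01 in untreated and 2.39, 1.80 and 1.19 in tamoxifen replicates. Pgk1 lies at chrX:103382462-103399038 (mm9, + strand).

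Ldha encodes the A subunit of lactate dehydrogenase, which reduces pyruvate to lactate. Its FPKM was 495, 285 and 311 in untreated and 650.3, 451 and 445 in tamoxifen replicates 1, 2 and 3. Its within-number differences of 0.39, 0.66 and 0.52 on the log2 scale were the most even among the 5 genes called higher. The log2 fold change was 0.52 (SE 0.33 without the block; SE 0.10 with the block, adjusted p = 0.0213, limma). The B subunit gene Ldhb, at 157, 51.6 and 68.7 FPKM in untreated and 205, 78.1 and 77.1 FPKM in tamoxifen replicates, had a log2 fold change of 0.38 and was not called (adjusted p = 0.0628 with the block, limma). Ldha lies at chr7:54101173-54110997 (mm9, + strand).

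**Figure D2:**
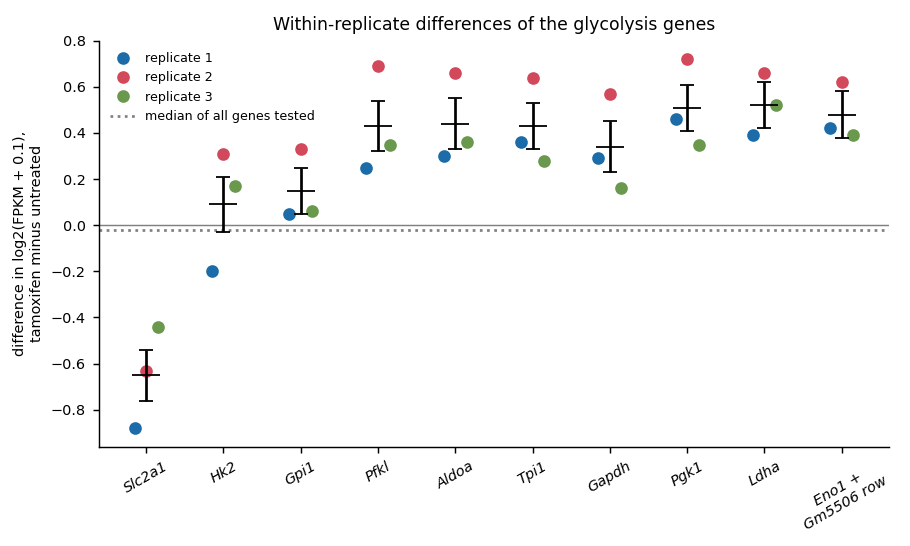
Difference in log2(FPKM + 0.1) between tamoxifen and untreated samples of the same replicate number (points), with the mean difference (long tick) and its SE from the fit with the replicate block, and the median of all genes tested as a dotted line at −0.019. Eno1 is drawn with the Gm5506 row at its locus added. Slc2a1 lies below 0 in all 3 replicates at a mean of −0.65, and Ldha and Pgk1 have the highest means, 0.52 and 0.51.

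Eno1 encodes enolase, which forms phosphoenolpyruvate, and its deposited row could not be read on its own. The row was at 55.8, 22.2 and 33.6 FPKM in untreated replicates 1, 2 and 3, listed at 0 in tamoxifen replicates 1 and 2, and at 55.5 FPKM in tamoxifen replicate 3. A row named Gm5506 covers chr4:149611432-149622982 and so nearly the whole of the Eno1 locus at chr4:149611305-149622982 (mm9, + strand). This overlapping row had the status LOWDATA and stood at 482, 212 and 281 FPKM in untreated and 720, 361 and 356 FPKM in tamoxifen replicates 1, 2 and 3. The rows of the locus added up to 538, 235 and 314 FPKM in untreated replicates, a mean of 362 ± 157 (SD, n = 3). In tamoxifen replicates they added up to 720, 361 and 411 FPKM, a mean of 497 ± 194 (SD, n = 3). The sum was higher with tamoxifen in all 3 numbers, by 0.42, 0.62 and 0.39 on the log2 scale. Its log2 fold change was 0.48 (SE 0.40 without the block, adjusted p = 0.999; SE 0.10 with the block, adjusted p = 0.0266, limma), a sum formed after the values were seen. For the Eno1 row alone no fold change is given, because how fragments were split between the overlapping rows is not stated in the sources used here.

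**Figure D3:**
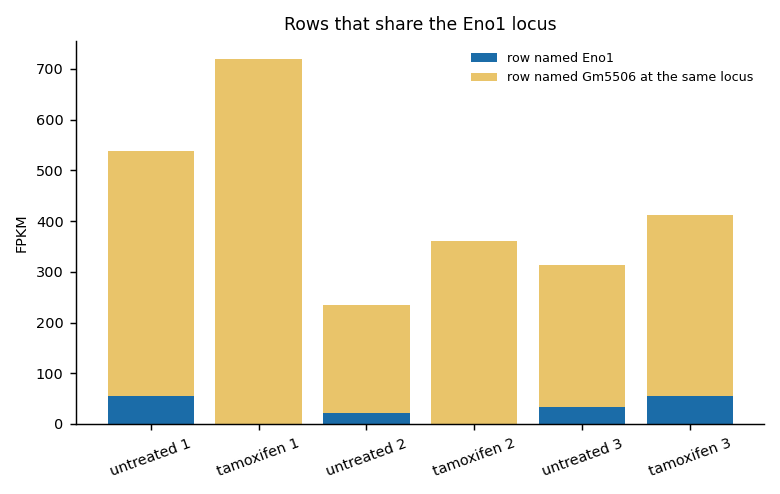
FPKM of the row named Eno1 (lower part of each bar) and of the row named Gm5506 at the same locus (upper part), per sample. The Eno1 row is at 0 in tamoxifen replicates 1 and 2, and the summed bars are higher with tamoxifen in each replicate number, at 720 against 538, 361 against 235 and 411 against 314.

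Another row named Gm5506 on another chromosome was also high, at between 457 and 1221 FPKM, and was higher with tamoxifen within each replicate number. Reads of Eno1 and of this near-copy may have been shared, and neither row can be taken as a clean measure.

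The variation between replicate numbers was larger than that between groups for most of these genes. In the fit with the block, the replicate number (limma F-test of its term) was called for 8 of the 10 genes, all but Hk2 and Eno1, beside 62.8% of all genes tested. Among genes with a mean above 50 FPKM, which include 8 of the 10, it was called for 84.2%. The 7 enzymes Gpi1, Pfkl, Aldoa, Tpi1, Gapdh, Pgk1 and Ldha were all highest in replicate 1, in untreated and in tamoxifen samples alike. From replicate 1 to replicate 2 they differed by −0.66 (Ldha) to −1.16 (Aldoa) on the log2 scale, averaged over both groups of samples. From replicate 1 to replicate 3 they differed by −0.6 (Gapdh) to −1.08 (Pfkl). Pairwise correlations of the 7 over the 6 samples lay between 0.86 and 1.00, while Slc2a1 correlated with them at −0.61 to −0.33 and Hk2 at −0.23 to −0.01. These correlations describe 6 samples that share replicate numbers and libraries, and the 7 were grouped after their values were seen. Without replicate 1, the replicate number was called for 2 of the 10, beside 42.6% of all genes.

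Slc2a1 did not follow the enzymes but was highest in replicate 2 in both groups. Slc2a3 and the lactate transporters Slc16a1 and Slc16a3, which were singled out after their values were seen, also had their highest values in replicate 2. Slc16a1, which encodes the monocarboxylate transporter MCT1, was at 44.5, 105 and 42.8 FPKM in untreated and 42.3, 88.6 and 54.3 FPKM in tamoxifen replicates 1, 2 and 3. Slc16a3, which encodes MCT4, was at 99.7, 164 and 40.9 FPKM in untreated and 109, 177 and 60.4 FPKM in tamoxifen replicates. Neither was called for tamoxifen with the block (adjusted p = 0.972 and 0.168, limma).

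Other measures moved with the replicate number too. The summed FPKM of 10 feeder fibroblast markers was 52.7, 157 and 112 in untreated and 56.2, 143 and 101 in tamoxifen replicates 1, 2 and 3. It was thus lowest in replicate 1, where the enzymes were highest, and close between groups of the same number. Of these markers, 7 of 10 were at 1 FPKM or more in all samples, none was at 0 in all samples, and the leading ones were the collagen genes Col1a1 and Col1a2 and the matrix gene Fbln2. The share of FPKM in loci under 300 bp was 23.9%, 67.8% and 54.7% in untreated and 25.6%, 61.6% and 42.3% in tamoxifen replicates, and the summed ESC markers were 4104, 2962 and 3089 FPKM in untreated and 5664, 3518 and 3256 FPKM in tamoxifen replicates. The part of fibroblast RNA, of short loci and of the level of ESC transcripts in these differences was not tested. In bulk RNA, fewer cells of a type and less RNA per cell cannot be told apart.

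The share of short loci bears on TPM scaling, which divides by the summed FPKM of each sample. FPKM as deposited is relative to mapped fragments, and a share of summed FPKM is not a share of fragments. The median log2 fold change of the 10 genes, with the row of Eno1 among them, was 0.38 and that of all genes tested −0.019. With the overlapping Gm5506 row added to Eno1, chosen after the values were seen, the median of the 10 was 0.43. Leaving out single samples, except untreated replicate 3, moved the median of the 10 more than any rescaling. It was 0.12 without tamoxifen replicate 1, 0.11 without untreated replicate 2 and 0.68 without untreated replicate 1. It was 0.51 without tamoxifen replicate 2 or 3 and 0.29 without untreated replicate 3. After scaling to TPM the medians of the 10 and of all genes were 0.48 and 0.081. They were 0.30 and −0.105 after TPM scaling without loci under 300 bp, and 0.27 and 0.011 after quantile normalization. With the block, all genes were called 563 higher and 787 lower as deposited, 421 and 1190.0 after TPM scaling without short loci, and 558 and 586 after quantile normalization, while the glycolysis genes were called 5 and 1, 3 and 2, and 0 and 1. The row of Eno1 was 1 of the 2 called lower after TPM scaling without short loci. Highly expressed genes leaned upward as a whole. Among the 1635 genes with a mean above 50 FPKM, which included 8 of the 10, the median log2 fold change was 0.12, 6.30% were called higher and 2.87% lower with the block, and the replicate number was called for 84.2%.

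Most other genes of the pathway also had higher mean values after tamoxifen. Of 27 further transporters, isoenzymes and regulators of glycolysis, 20 were tested, with a median log2 fold change of 0.26, and 15 of the 20 were above 0. Without the block 0 were called in either direction (1 at an unadjusted p below 0.05, limma). With the block 5 were called higher, namely Pgam2, Pfkp, Aldoc, Hk1 and Pgam1, and 1 lower, Slc2a4, or 25.0% and 5.0% of the 20 beside 4.33% and 6.06% of all genes. Pgam2 encodes the muscle-type phosphoglycerate mutase and had a log2 fold change of 0.85 (adjusted p = 0.0134, limma, with the block) at only 1.73 to 8.11 FPKM. Pgam1, the abundant form, was at 408, 231 and 330.0 FPKM in untreated and 547, 348 and 402 FPKM in tamoxifen replicates, with a log2 fold change of 0.43 (adjusted p = 0.0385, limma, with the block). Pkm, which encodes the pyruvate kinase of the last step, was among the most abundant, at 1199.7, 612 and 801 FPKM in untreated and 1381, 890.0 and 933 FPKM in tamoxifen replicates. Its log2 fold change of 0.32 was not called (adjusted p = 0.116, limma, with the block). The other enolases, Eno2 at 2.11 to 3.57 FPKM and Eno3 at 11.8 to 24.1 FPKM, were not called (adjusted p = 0.441 and 0.0795, limma, with the block). The replicate number was called for 16 of the 20, beside 62.8% of all genes tested.

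**Figure D4:**
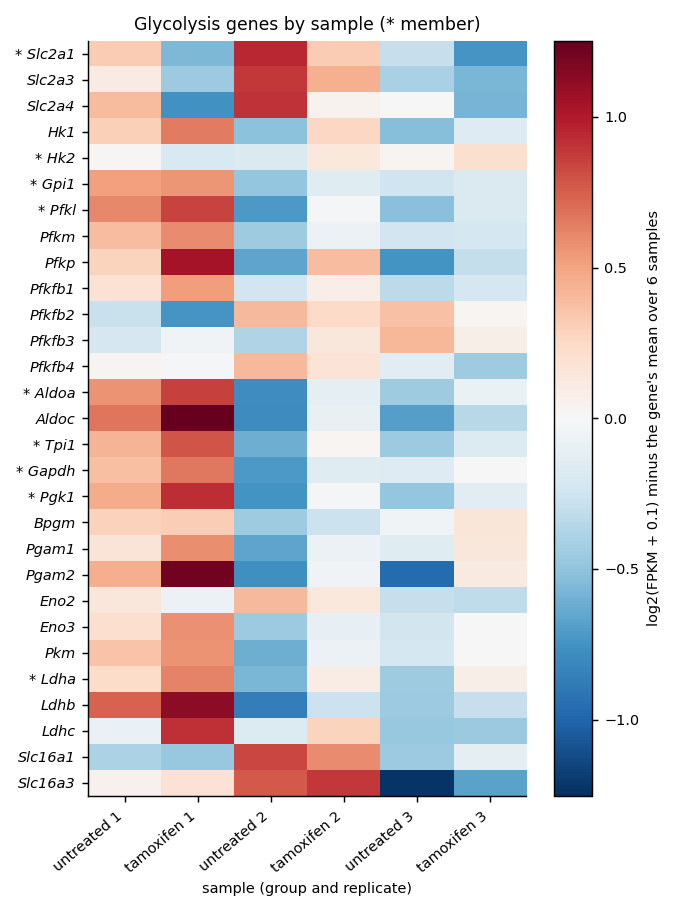
Log2(FPKM + 0.1) minus the mean of each gene over the 6 samples (colour, red above and blue below the mean), for the members (asterisk) other than Eno1 and the 20 further glycolysis genes tested, in pathway order, with samples ordered by replicate number. Most enzymes are red in both samples of replicate 1, while Slc2a1, Slc2a3, Slc16a1 and Slc16a3 are at their reddest in replicate 2.

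HIF target genes outside glycolysis and the regulators of the pathway gave a mixed picture. Of 19 HIF targets tested, 3 were called higher with the block and 1 lower. These were 15.8% and 5.26%, beside 4.33% and 6.06% of all genes, so the share called lower was close to that of all genes. Of the 19, 14 were above 0, with a median log2 fold change of 0.20. The genes called higher were Ankrd37 (0.95), the mitophagy gene Bnip3 (0.81) and Ndrg1 (0.53), and the gene called lower was Plod2, a collagen lysyl hydroxylase (−0.86). Plod2 stood at 25.0, 49.9 and 38.2 FPKM in untreated and 13.6, 27.2 and 21.3 FPKM in tamoxifen replicates, with differences of −0.88, −0.87 and −0.84, and its adjusted p with the block was 0.00393 (limma). Of 9 upstream regulators, 0 were called higher and 2 lower with the block (22.2% lower, beside 6.06% of all genes), and 4 were above 0. The genes called lower were Myc, at 11.4, 16.1 and 29.6 FPKM in untreated and 5.62, 9.04 and 17.3 FPKM in tamoxifen replicates, with a log2 fold change of −0.87 (adjusted p = 0.00489, limma), and Txnip, an inhibitor of glucose uptake, with −0.50 (adjusted p = 0.0229). Hif1a had a log2 fold change of −0.11 and was not called (adjusted p = 0.548). Without the block, 0 genes of these lists were called in either direction (limma). At an unadjusted p below 0.05 there were 3 of the 19 HIF targets and 0 of the 9 regulators, beside 4.79% of all genes.

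The branches that leave glycolysis were also followed. Of 22 genes of pyruvate oxidation and the TCA cycle, 18 were above 0, the median log2 fold change was 0.11, and 1 was called higher with the block, the pyruvate dehydrogenase subunit gene Pdha1 (0.39, adjusted p = 0.0394, limma). This share of 4.55% was close to the 4.33% of all genes. Of 12 genes of the pentose phosphate and serine branches, 3 were called higher with the block (25.0%), all of them serine synthesis genes that draw on a glycolytic intermediate. These were Phgdh, Psat1 and Psph, with log2 fold changes of 0.47, 0.44 and 0.38. Of 4 gluconeogenesis genes tested, 1 was called higher, Pck2, the mitochondrial phosphoenolpyruvate carboxykinase, at 11.5, 7.34 and 6.26 FPKM in untreated and 20.9, 15.1 and 11.5 FPKM in tamoxifen replicates (log2 fold change 0.92, adjusted p = 0.00442, limma, with the block). In each of these 3 lists 0 genes were called lower with the block, beside 6.06% of all genes, and 0 in either direction without it. At an unadjusted p below 0.05 without the block there were 0, 0 and 2 genes, beside 4.79% of all genes.

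Among 10 reference genes, of which Gapdh and Pgk1 are also members, 1 was called higher with the block, Pgk1 itself. Another 1 was called lower, B2m (−0.51, adjusted p = 0.0203, limma). The median log2 fold change of the 10 was 0.18, with 8 above 0, Gapdh and Pgk1 among them. Of 10 ESC markers, 0 were called in either direction with the block (limma; 0 without it also at an unadjusted p below 0.05), and their median log2 fold change was 0.17. Of 9 feeder fibroblast markers tested, 0 were called higher and 1 lower with the block, Fbln2 (−0.43), with a median of 0.03. Over all genes tested, 4.33% were called higher and 6.06% lower with the block, and 4.79% had an unadjusted p below 0.05 without it. Lists of 9 and 10 genes are too short to tell these counts from such shares.

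The genes whose profile over the 6 samples was most like the mean of the members were sought among 6365 other genes with a mean of at least 10 FPKM. With all 10 members the mean was set by the zeros of the Eno1 row, and the most alike were Bcar3, Nacc1, Dhx32, Inpp5a and Gtf2ird1, at Pearson r of 0.962 to 0.904. With Eno1 left out, a choice made after its values were seen, they were Aldoart1 (0.996), Pcbp4, Fh1 and Lonp1 (0.993 each) and Kctd13 (0.992). Aldoart1 is a near-copy of Aldoa, so reads may be shared between them. Fh1 encodes fumarate hydratase of the TCA cycle and was at 82.2, 54.3 and 53.4 FPKM in untreated and 89.3, 66.2 and 60.2 FPKM in tamoxifen replicates, and Lonp1 encodes a mitochondrial protease. These are descriptions over 6 samples that share replicate numbers.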

How the data were processed

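RNA-seq of polyA+ RNA was analysed in 6 of the 23 samples of the series. The ChIP-seq and input samples were not analysed here. Per the methods of the study, the authors aligned paired-end reads to mm9 with Tophat2 (0.5) and quantified refGene models with cuffdiff (2.1.1). The authors deposited FPKM values, fragments scaled by transcript length and by all mapped fragments, without read counts, so the depth of each sample is unknown and no interval that needs counts is given. From the size of single-fragment steps, the remaining samples had an estimated 0.654 to 0.954 times the depth of untreated replicate 1. This estimate is rough, because only 21.4% to 23.7% of the low genes used lay on the step in these samples. The deposited bounds were not used as errors, because 16.1% to 19.4% of the rows at 1 FPKM or more lay outside their own bounds, among them Slc2a1, Gpi1, Gapdh and Pgk1 in all 6 samples, Pfkl in 5 and Aldoa in 1. The tables give FPKM for each row, and rows of the same gene name were summed, which gave 23363 gene names after 6 names with a failed status in any sample were left out.

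Groups were compared with limma 3.58.1 in R 4.3.3 (lmFit, eBayes with a mean-variance trend) on log2(FPKM + 0.1). A fold change is on this scale, which understates changes of low genes. P-values were adjusted by Benjamini-Hochberg over all 12997 genes tested, with a threshold of 0.05 and two-sided tests, and measure the spread between these samples. The main fit had no block. Deviations from the group means correlated at 0.544, 0.605 and 0.506 between samples of the same replicate number and at −0.379 to −0.105 between samples of different numbers. The numbers, which come from the sample labels, were therefore taken to pair the samples, and blocked values are given beside the results. The fits were tested on simulated data. Other steps used Python 3.11.15 with pandas 2.3.3 and numpy 2.4.6.

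Alternatives were pseudocounts of 1 and 0.01, TPM scaling with and without loci under 300 bp, quantile normalization, the highest row per gene name, no filter, at least 1 FPKM in all samples, no trend, the block, and leaving out each sample or replicate number. Promoters came from RefSeq (GRCm38.p6) and gene strands from GENCODE. The members and gene lists were chosen with earlier results of these data known. Named genes are the 10 members, their isoenzymes, up to 4 genes per other list called with the block by size of change, the 5 genes with the most alike profile, and Kdm2b. Genes named outside this rule are the remaining gene called in a list (Pgam1), Pkm, Hif1a, Hprt, Pou5f1, Sox2, Nanog, the collagen genes, Spsb2, Gm5506 and the monocarboxylate transporters, and they were chosen after their values were seen.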

Additional observations from a re-analysis of the deposited data

How the results depend on the processing

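Without the replicate block, 0 glycolysis genes were called higher and 0 lower under every alternative tried, except that the row of Eno1 was called lower without tamoxifen replicate 3 (leave-one-out range 0 to 1 lower). The median log2 fold change of the members ranged from 0.11 to 0.68 when single samples were left out, and the log2 fold changes from 0.11 to 0.84 for Pfkl, 0.12 to 0.83 for Aldoa, 0.14 to 0.75 for Tpi1, 0.06 to 0.61 for Gapdh, 0.17 to 0.87 for Pgk1, 0.34 to 0.77 for Ldha, 0.01 to 0.21 for Hk2 and −0.97 to −0.34 for Slc2a1. The log2 fold change of Gpi1 turned to −0.10 without tamoxifen replicate 1 and to −0.06 without untreated replicate 2, in a range up to 0.44, and that of Eno1 to 0.48 with the overlapping Gm5506 row added, an alternative chosen after seeing the data. All genes were called 3 higher and 1 lower, 1 and 0 with no filter, 0 and 0 at 1 FPKM in all samples, 0 lower with a pseudocount of 1, and 2 to 5 higher and 0 to 7 lower when single samples were left out.

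With the replicate block, 5 glycolysis genes were higher and 1 lower, and all genes 563 and 787. With TPM scaling without loci under 300 bp these were 3 and 2, and 421 and 1190.0. With quantile normalization they were 0 and 1, and 558 and 586. For counts of called genes, the block with the other filters, pseudocounts, TPM scaling and no trend was added after seeing the data. It gave 0 and 0 in members and in all genes with no filter, 4 and 2 members with 430.0 and 336 genes under TPM scaling, and 0 and 1 members with 328 genes higher without a trend. The row of Eno1 was 1 of the 2 called lower under TPM scaling. Its adjusted p was 2.17e-106 there and 0.071 as deposited (limma, with the block), and this row cannot be read on its own. Leaving out replicate numbers, which was planned, gave 0 to 5 members higher and 0 to 2 lower, and 36 to 744 genes higher and 43 to 1011 lower. The lowest counts were those without replicate 2, and without replicate 3 there were 359 genes higher and 478 lower. Under the block the log2 fold change of Hk2 was −0.02 without replicate 2, and that of Eno1 was 0.48 with the Gm5506 row. With whole replicate numbers left out, the log2 fold changes of Pfkl, Aldoa, Tpi1, Gapdh and Pgk1 lay between 0.23 and 0.59. Those of Ldha lay between 0.45 and 0.59 and those of Gpi1 between 0.05 and 0.20. Those of Slc2a1 lay between −0.76 and −0.54. Of 13 blocked alternatives, Slc2a1 was called in 11, Pgk1 in 9, Aldoa and Ldha in 8, Tpi1 in 7, Pfkl in 5, Gapdh in 1, and Gpi1 and Hk2 in 0, and of 12, Eno1 in 4, as lower in 3 and as higher in the 1 with the Gm5506 row added. The replicate number was called for 8 members, beside 62.8% of all genes and 84.2% of genes with a mean above 50 FPKM. It was called for 10 members under TPM scaling, the row of Eno1 among them, and for 0 with no filter. When replicates were left out it was called for 2 to 9. The lowest count was that without replicate 1, where the share of all genes was 42.6%. The causes of these changes were not tested.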
